A study of Homo sapiens with 4 samples.

Results

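The genes described here are 10 markers of the mesenchymal state and of invasion, chosen by symbol: VIM, CD44, LGALS1, ZEB1, ZEB2, SNAI2, TWIST1, MMP14, AXL and PLAUR. All 10 were found among the 28198 genes of the table. Their values were read in 4 libraries of polysome profiling in MDA-MB-231, an invasive breast cancer cell line of human origin. All cells carried an shRNA that depletes METTL3, the catalytic subunit of the m6A RNA methyltransferase, and were reconstituted from a lentiviral vector with either wild-type METTL3 (METTL3 WT) or METTL3 K177Q, a mutant that mimics lysine acetylation. All cells received 100 µg/mL cycloheximide for 5 min before lysis, and a gradient of 10 to 50% sucrose was pooled into a sub-polysome fraction (free subunits and single ribosomes) and a polysome fraction. The comparison asks how the mutant changes the loading of mRNAs onto polysomes, and it rests on 1 library per genotype and fraction, all of replicate 2. Columns named as replicate 1 could be tied to no sample in the labels and were left aside, so there is no replicate error for any value, and no difference was tested. A pool of cells was measured, so fewer expressing cells and less RNA per cell cannot be told apart.

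Epithelial cells that pass into a mesenchymal state lose their junctions and gain motility. Transcription factors of the ZEB, SNAIL and TWIST families drive this transition by repressing epithelial genes such as CDH1. The intermediate filament vimentin, encoded by VIM, replaces much of the keratin network, and surface proteins such as CD44, AXL, the membrane-anchored protease MMP14 and the urokinase receptor PLAUR carry out adhesion, signalling and matrix breakdown. Polysome profiling reports how much of an mRNA is carried by several ribosomes, and translation efficiency here is the polysome value divided by the sub-polysome value.

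Translation starts at the AUG codon, and the bases around it are shown for the 7 measured members on which the results turn. They are taken from the canonical transcripts of GENCODE 44 on GRCh38, 5′ to 3′, from 10 bases before the codon to 3 bases after it. Capitals mark the start codon, the third base before it and the base that follows it.
VIM: ctccgcaGccATGTcc
LGALS1: ggactcaAtcATGGct
CD44: tccggacAccATGGac
MMP14: gtctcggAccATGTct
AXL: tttggcaCccATGGcg
PLAUR: ccctcgcGacATGGgt
ZEB1: cgagaggAtcATGGcg
CD44, LGALS1, PLAUR and ZEB1 hold ANNATGG or GNNATGG, the pattern usually called a strong context, read on the transcript strand only. It was found in 4 of the 10 members and in 47.8% of the 10267 genes of mean 1 FPKM or more for which it could be read. The members that hold it included both high and low translation efficiencies, as given below, and VIM and MMP14, which had the highest ones, do not hold it.

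METTL3 places m6A mainly in a motif whose commonest form is GGACT in DNA letters, often near stop codons. In a window of 400 bases centred on the stop codon, searched on the transcript strand, 3 of the 9 members with a full window held GGACT, namely CD44, MMP14 and TWIST1. The share was 38.6% of the 9293 genes at or above a mean of 1 FPKM. The sites of the measured members that lie nearest to the stop codon are shown with the motif in capitals.
CD44: aaagccaagtGGACTcaacggagag
MMP14: cctaccacaaGGACTttgcctctga
The MMP14 motif begins 34 bases after the last base of the stop codon. MMP14 and AXL each hold 8 copies in the whole transcript, against 2 in VIM and 1 each in LGALS1 and PLAUR, but the transcripts differ in length. Copies per kb were 2.16 in MMP14, 1.89 in LGALS1, 1.70 in AXL, 0.93 in VIM and 0.92 in CD44. PLAUR had 0.73, ZEB1 0.51 and SNAI2 0.46 per kb. The median of genes at or above a mean of 1 FPKM was 0.93 per kb. A match gives the letters only, and no methylation was measured in these libraries.

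The table gives FPKM, fragments scaled by transcript length and by the number mapped. Totals ranged from 767949 to 1037594 FPKM between libraries, and 15773 to 16193 genes per library were listed above 0. The depth is unknown, because values of low genes did not resolve into whole fragments, so no counting interval is given. METTL3 itself read 9.39 FPKM in sub-polysomes and 38.7 FPKM in polysomes with METTL3 WT, against 5.07 and 29.5 FPKM with METTL3 K177Q. No library of cells without reconstitution was analysed here, and a gene total cannot tell the mutant from the wild type.

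The 10 genes fell into an abundant and a scarce group. LGALS1, VIM, MMP14, AXL, PLAUR and CD44 each averaged over 100 FPKM. The transcription factors SNAI2, ZEB1, ZEB2 and TWIST1 each averaged under 10 FPKM, and ZEB2 and TWIST1 did not reach the mean of 1 FPKM asked for below. LGALS1 ranked first and VIM second of the 10 in every library. Below them, AXL, MMP14, CD44 and PLAUR changed places between libraries, with AXL next after VIM in both sub-polysome libraries and MMP14 next in both polysome libraries. SNAI2, ZEB1, ZEB2 and TWIST1 kept the last 4 places in that order. Without replicates, neighbours in this order cannot be set against the spread of their values.

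**Figure D1:**
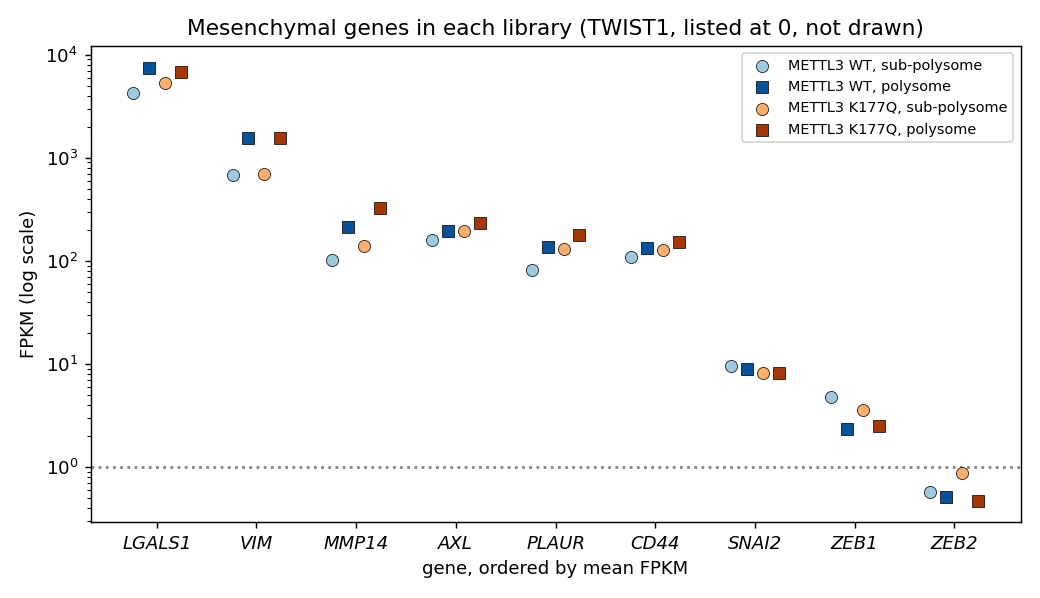
FPKM on a log scale for 9 mesenchymal genes in the 4 libraries, circles for sub-polysome and squares for polysome; the dotted line is 1 FPKM and TWIST1 is listed at 0. The 6 abundant genes lie above 80 FPKM in every library, and SNAI2, ZEB1 and ZEB2 lie below 10 FPKM.

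The cell line was checked against markers. Among 19 epithelial genes, 7 had a mean under 1 FPKM. The defining genes CDH1 (E-cadherin), the splicing regulator ESRP1 and the transcription factor GRHL2 were near or at 0, with CDH1 between 0.219 and 0.632 FPKM, ESRP1 at most 0.0441 FPKM and GRHL2 listed at 0 in each library. Other epithelial genes were abundant, and the keratin gene KRT19 ranged from 547.8 to 1415 FPKM. The junction gene CLDN4 ranged from 123.6 to 199.1 FPKM. FN1, which encodes fibronectin, had 5.43 to 14.5 FPKM and CDH2, N-cadherin, 0.653 to 0.920 FPKM. The summed FPKM of the epithelial list was 1637 and 3494 in the sub-polysome and polysome fractions of METTL3 WT cells, and 1911 and 3593 in METTL3 K177Q cells. Its part in the results below was not tested. The receptor genes ESR1 and PGR were at or near 0, and ERBB2 had 12.2 to 28.3 FPKM.

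In METTL3 WT cells, VIM, MMP14, LGALS1 and PLAUR were at least 1.5-fold higher in the polysome than in the sub-polysome fraction, while ZEB1 was at least 1.5-fold lower. These are 4 higher and 1 lower of the 8 members averaging 1 FPKM or more, where 28.1% of the 10905 genes compared were higher and 19.1% lower. The members' median log2 translation efficiency was 0.52 and that of all genes compared was 0.14. In METTL3 K177Q cells, VIM and MMP14 were at least 1.5-fold higher and no member was lower, with 30.2% of all genes higher and 21.3% lower. The members' median was then 0.30, against 0.16 for all genes. Values are log2 ratios of FPKM with 0.1 added, and 1.5-fold, which the study applied to translation efficiency between genotypes, was used here for every comparison.

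VIM encodes vimentin, the main intermediate filament protein of mesenchymal cells. It lies on chromosome 10 from 17228241 to 17237593 and its canonical transcript has 10 exons and codes for 466 residues. VIM read 676.7 FPKM in sub-polysomes and 1539 FPKM in polysomes with METTL3 WT, against 692.1 and 1543 FPKM with METTL3 K177Q. Its polysome values were more than 2-fold its sub-polysome values in both genotypes, and the genotypes were close in each fraction. Translation efficiency was 2.27 in METTL3 WT and 2.23 in METTL3 K177Q cells, a log2 ratio between genotypes of -0.03. It was 0.27 after every library was rescaled to the same total (TPM), where the median of all genes moved from -0.01 to 0.29, and relative to the median of all genes as deposited VIM was at -0.02. Its sub-polysome difference of 0.03 also turned with TPM, to -0.17, where the median of all genes was -0.21. VIM-AS1, an antisense noncoding gene that bears its name, ranged from 9.63 to 38.0 FPKM. The libraries were strand-directional, but whether strand was used in counting is not given in the sources used here.

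LGALS1 encodes galectin-1, a small secreted lectin that binds galactosides on cell surfaces and in the matrix. It lies on chromosome 22 from 37675636 to 37679802, with 4 exons and 135 residues. LGALS1 read 4231 FPKM in sub-polysomes and 7499 FPKM in polysomes with METTL3 WT, against 5350 and 6745 FPKM with METTL3 K177Q. It was the fourth most abundant gene of the whole table in each polysome library and took 0.916% and 0.878% of their totals. Compared with METTL3 WT, the METTL3 K177Q value was 1.26-fold higher in the sub-polysome and 1.11-fold lower in the polysome fraction. Translation efficiency was 1.77 in METTL3 WT and 1.26 in METTL3 K177Q cells, a log2 ratio of -0.49, which is the lowest among the 8 members compared. The ratio stayed under the 1.5-fold threshold, and with TPM it was -0.19, where the median of all genes was 0.29. The only GGACT of its transcript is the ggact at the left end of the start codon context shown above.

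The surface genes CD44, AXL, MMP14 and PLAUR were higher in METTL3 K177Q than in METTL3 WT cells in both fractions, and so was VIM, by 0.03 or less on the log2 scale. These are 5 of the 8 members compared, where 25.5% of all genes compared were higher in both. Under TPM, or when totals without ribosomal protein genes were made equal, this held for AXL, MMP14 and PLAUR. In the sub-polysome fraction CD44 was at -0.0086 and -0.0030 and VIM at -0.17 on both scales. The median of all genes in that fraction was -0.21 and -0.20. At 1.5-fold, MMP14 alone of the 8 members was higher between the polysome libraries and none was lower, with 2.13% of all genes higher and 3.13% lower. Between the sub-polysome libraries, PLAUR alone was higher and none was lower, with 4.01% of all genes higher and 2.94% lower.

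MMP14 encodes MT1-MMP, a protease held in the plasma membrane that cleaves collagen and activates other metalloproteinases. It lies on chromosome 14 from 22836560 to 22849041, with 10 exons and 582 residues. MMP14 read 101.8 FPKM in sub-polysomes and 214.4 FPKM in polysomes with METTL3 WT, against 140.3 and 327.6 FPKM with METTL3 K177Q. The METTL3 K177Q value was the higher in each fraction, by 1.38-fold in the sub-polysome and by 1.53-fold in the polysome fraction, just past the threshold. Log2 translation efficiency was 1.07 in METTL3 WT and 1.22 in METTL3 K177Q cells, a ratio of 0.15. With TPM the polysome difference was 0.70 on the log2 scale, where the median of all genes was 0.068.

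PLAUR encodes the receptor that holds the protease urokinase at the cell surface. It lies on chromosome 19 from 43646095 to 43670547, on the minus strand, with 7 exons and 335 residues. PLAUR read 81.6 FPKM in sub-polysomes and 137.3 FPKM in polysomes with METTL3 WT, against 129.7 and 176.3 FPKM with METTL3 K177Q. The sub-polysome difference was the larger, 1.59-fold against 1.28-fold in the polysome fraction. With TPM the sub-polysome log2 difference was 0.46, which is under the threshold of 0.58, while the median of all genes was -0.21. Translation efficiency was 1.68 in METTL3 WT and 1.36 in METTL3 K177Q cells, a log2 ratio of -0.31. With TPM the ratio became -0.0082, where the median of all genes moved from -0.01 to 0.29.

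CD44 encodes the hyaluronan receptor, and AXL a receptor tyrosine kinase of the TAM family. CD44 lies on chromosome 11 from 35138882 to 35232402, with 18 exons and 742 residues in the canonical transcript, and AXL on chromosome 19 from 41219223 to 41261766, with 20 exons and 894 residues. CD44 is spliced into many isoforms, which gene totals do not separate. CD44 read 110.1 FPKM in sub-polysomes and 133.4 FPKM in polysomes with METTL3 WT, against 126.2 and 151.2 FPKM with METTL3 K177Q. AXL had 158.4 and 193.7 FPKM with METTL3 WT, against 195.7 and 235.2 FPKM with METTL3 K177Q. Both genes thus had similar small steps from sub-polysome to polysome and from METTL3 WT to METTL3 K177Q. CD44 was 1.15-fold higher in METTL3 K177Q cells in the sub-polysome and 1.13-fold higher in the polysome fraction, and AXL 1.23-fold and 1.21-fold. Their log2 translation efficiency ratios were both -0.02, and 0.28 and 0.27 with TPM, where all genes had a median of 0.29.

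**Figure D2:**
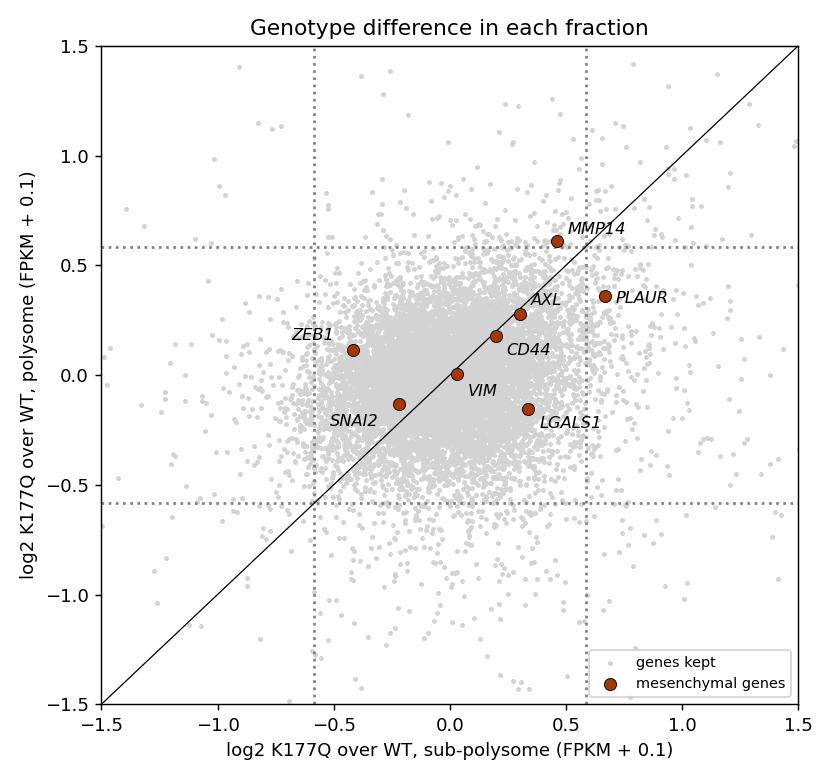
Log2 difference of METTL3 K177Q from METTL3 WT in the sub-polysome fraction (x) and in the polysome fraction (y) for 10905 genes in grey, 85 of them outside the axes, and for the 8 mesenchymal genes compared; dotted lines mark 1.5-fold and the diagonal marks equal differences. MMP14 at 0.61 is past the polysome line and PLAUR at 0.67 past the sub-polysome line, while LGALS1 lies below and ZEB1 above the diagonal.

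ZEB1 and ZEB2 encode related zinc-finger repressors of CDH1, and SNAI2 encodes Slug, another repressor of it. ZEB1, on chromosome 10 from 31318495 to 31529814 with 9 exons and 1125 residues, read 4.76 FPKM in sub-polysomes and 2.32 FPKM in polysomes with METTL3 WT. With METTL3 K177Q it read 3.54 and 2.52 FPKM. Among the 8 members compared, ZEB1 had the lowest translation efficiency in each genotype, 0.498 and 0.719, and its sub-polysome value was higher than its polysome value in both. The log2 ratio between genotypes was 0.53, which is 1.44-fold and just under the threshold. It was 0.82 under TPM, where 18.6% of all genes were at least 1.5-fold higher, and 0.76 under equal totals without ribosomal protein genes, where 14% were. Relative to the median of all genes it was 0.54 as deposited and 0.54 on both of these scales. It was 0.43 with 1 FPKM added in place of 0.1. Among genes with a mean from 1 to under 5 FPKM, the level of ZEB1, 19.3% were at least 1.5-fold changed in translation efficiency in either direction, against 6.35% of genes from 50 to under 500 FPKM and 21.5% of genes of 500 FPKM or more, the level of LGALS1 and VIM. ZEB1-AS1, an antisense noncoding gene, had 2.94 and 1.07 FPKM with METTL3 WT, against 3.13 and 2.00 FPKM with METTL3 K177Q.

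SNAI2 read 9.57 FPKM in sub-polysomes and 8.90 FPKM in polysomes with METTL3 WT, against 8.21 and 8.11 FPKM with METTL3 K177Q. Its values lay close together, with log2 translation efficiencies of -0.10 in METTL3 WT and -0.02 in METTL3 K177Q cells. With TPM these turned to 0.029 and 0.41, where the medians of all genes were 0.28 and 0.59. SNAI2 was slightly lower in METTL3 K177Q cells in both fractions, by 1.16-fold in the sub-polysome and 1.10-fold in the polysome fraction. ZEB2, on chromosome 2 from 144364364 to 144521057, had 0.574 and 0.511 FPKM with METTL3 WT, against 0.875 and 0.473 FPKM with METTL3 K177Q. Its translation efficiency was 1.54-fold lower in METTL3 K177Q cells, but 42.4% of genes with a mean from 0.3 to under 1 FPKM were changed that much in either direction. TWIST1, a basic helix-loop-helix factor on chromosome 7 from 19020991 to 19117636, was listed at 0 in all 4 libraries, and no ratio is given for it.

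**Figure D3:**
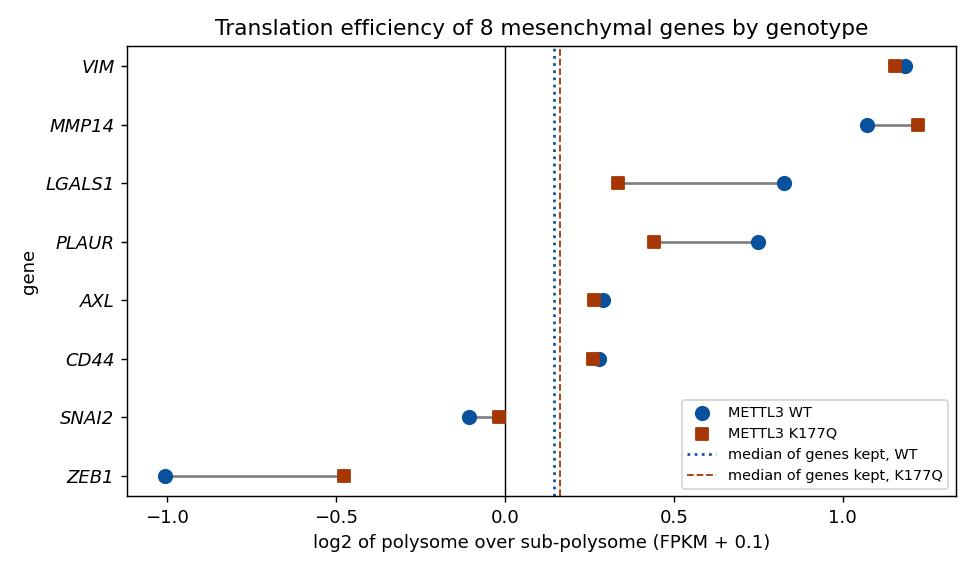
Log2 translation efficiency (polysome over sub-polysome) of the 8 genes compared, with METTL3 WT as circles and METTL3 K177Q as squares, and the median of all genes compared as a dotted line for METTL3 WT and a dashed line for METTL3 K177Q. VIM and MMP14 lie above 1 in both genotypes, LGALS1 and PLAUR lie nearer to the medians in METTL3 K177Q cells, and ZEB1 stays below 0.

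None of the 8 members compared reached a 1.5-fold difference in translation efficiency between genotypes. Of all genes compared, 4.08% reached it with METTL3 K177Q above METTL3 WT and 7.03% with METTL3 K177Q below. The members' log2 ratios ran from -0.49 for LGALS1 to 0.53 for ZEB1 with a median of -0.02, and 3 were above 0. Of all genes compared, 48.9% were above 0, and their median was -0.01. VIM, CD44 and AXL lay within 0.03 of 0.

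The members differ widely in coding length, from 408 bases in LGALS1 to 3378 bases in ZEB1, the shortest and the longest of the 8 compared, which also had the lowest and the highest ratio. Spearman's rho of the translation efficiency ratio with coding length was 0.62 across the 8 members, and 0.46 across 10304 genes with a coding length, all read from the same 4 libraries. Genes coding for under 500 bases had a median log2 ratio of -0.30, and those of 3000 bases or more had 0.24. LGALS1 and ZEB1 lay further from 0 than these medians, and PLAUR, with 1008 coding bases, lay lower than the median of 0.013 for genes from 1000 to under 2000 bases. In METTL3 WT cells alone, rho of translation efficiency with coding length was -0.38 across the members and 0.23 across all genes. LGALS1, with a log2 translation efficiency of 0.83, lay above the median of -0.44 for its length class, and ZEB1, with -1.01, lay below the median of 0.39 for its own. The 3′ UTRs run from 53 bases in LGALS1 to 3069 bases in CD44 among the 8 members, and rho of the translation efficiency ratio with their length was 0.74 across the members and 0.31 across all genes.

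**Figure D4:**
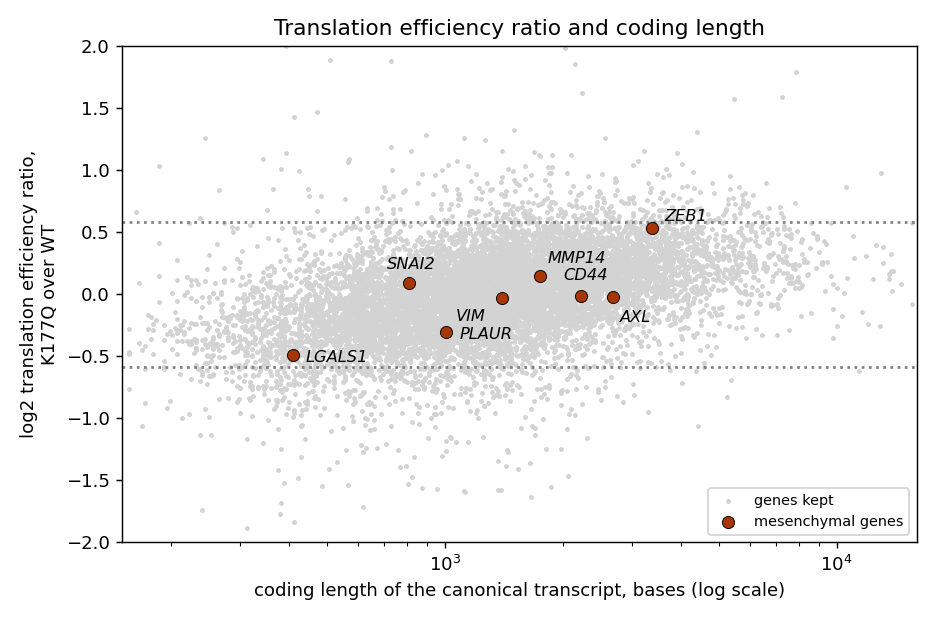
Log2 translation efficiency ratio of METTL3 K177Q to METTL3 WT (y) against coding length in bases on a log scale (x) for 10304 genes in grey, 38 of them outside the axes, and for the 8 mesenchymal genes compared; dotted lines mark 1.5-fold. LGALS1 with 408 coding bases and a ratio of -0.49 and ZEB1 with 3378 bases and 0.53 are the lowest and the highest of the 8.

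The gene most like each member over the 4 libraries was sought among genes averaging 10 FPKM or more, by the root mean square difference of log2 values after each gene's own mean was subtracted. For MMP14 it was SEZ6L2, with a difference of 0.027, and 9 of 5378 genes lay within 0.1. For ZEB1 it was PRKRA, at 0.054, with 7 genes within 0.1, and for PLAUR it was G6PC3, at 0.040, with 27 genes. For LGALS1 it was CTSF, at 0.033, with 153 genes. VIM was nearest to LRRC59, CD44 to POMGNT1, AXL to HS1BP3 and SNAI2 to WDR20, each within 0.019 and each with at least 168 genes within 0.1. Among the genes searched, the patterns of MMP14, ZEB1 and PLAUR thus had few near neighbours, and those of VIM, CD44, AXL, SNAI2 and LGALS1 had many. ZEB1 and SNAI2 themselves averaged under 10 FPKM, so genes as low as these were not searched.

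The proteins around each member were read from gene lists, members left out. In the urokinase system, 7 of 10 other genes passed the minimum, and none of these changed by 1.5-fold in translation efficiency. PLAU, the protease that PLAUR binds, had 154.2 and 246.6 FPKM with METTL3 WT, against 222 and 324.5 FPKM with METTL3 K177Q, so it was higher in both fractions, as PLAUR was, by 1.44-fold and 1.32-fold. The genes of this list with the highest means were ANXA2 and S100A10, with log2 translation efficiency ratios of -0.22 and -0.17.

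Of 20 other metalloproteinase and inhibitor genes, 12 passed the minimum. When METTL3 K177Q was compared with METTL3 WT, 10 of the 12 were above 0 in the polysome fraction, where 46.2% of all genes were. In the sub-polysome fraction 10 were above 0, where 49.4% of all genes were. In both fractions 9 were above 0, where 25.5% of all genes were. TIMP1, an inhibitor of metalloproteinases, had 908.8 and 1656 FPKM with METTL3 WT, against 1384 and 2008 FPKM with METTL3 K177Q, and BSG, an inducer of metalloproteinases, had a log2 translation efficiency ratio of -0.23. MMP9 was the only gene of this list past 1.5-fold in translation efficiency, with a log2 ratio of 0.87 at 1.10 to 3.05 FPKM. It stands in the range of means with the 19.3% given for ZEB1. With TPM the sub-polysome median of all genes moved from -0.0039 to -0.21, and the list was not recounted on that scale.

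Of the TAM genes, GAS6, the ligand of AXL, had 322.6 and 379.2 FPKM with METTL3 WT, against 424.8 and 400.4 FPKM with METTL3 K177Q. Its log2 translation efficiency ratio of -0.32 lay lower than the -0.02 of AXL. PROS1, which encodes protein S, was second by mean with 4.51 to 5.35 FPKM and a ratio of 0.19, and none of the 4 genes passed 1.5-fold. Among the hyaluronan genes and CD44 partners, 8 of 13 passed the minimum. MSN and EZR, which link CD44 to actin, had log2 translation efficiency ratios of 0.42 and 0.37. ESRP2, an epithelial splicing regulator at 0.865 to 1.66 FPKM, was the only gene past the threshold, at 0.60. Its mean lies in the range with the 19.3% given for ZEB1.

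Of 8 other galectin genes, 6 passed the minimum. LGALS3 had 171.6 and 348 FPKM with METTL3 WT, against 226.1 and 383.4 FPKM with METTL3 K177Q, a log2 ratio of -0.26. LGALS3BP was at 0.01, and LGALS12, at 0.392 to 1.70 FPKM, was past the threshold with 0.96. LGALS12 also stands in the range of means with the 19.3% given for ZEB1. The 6 galectin genes other than LGALS1 had a median of 0.02, with 4 of them above 0, while LGALS1 was at -0.49. LGALS3, at -0.26, lay below 0 as LGALS1 did.

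Of 11 other transcription factor genes of the transition, 4 passed the minimum. SOX9 and TCF3 had the highest means, with log2 translation efficiency ratios of 0.33 and 0.10. SNAI1, which encodes Snail, had 0.560 and 1.23 FPKM with METTL3 WT, against 1.31 and 0.983 FPKM with METTL3 K177Q, a log2 ratio of -1.38, and it stands in the range of means with the 19.3% given for ZEB1. Of 14 other genes of the mesenchymal cytoskeleton and adhesion, 9 passed the minimum. S100A4 and TPM1 had the highest means, with ratios of -0.17 and 0.01. NES, an intermediate filament gene like VIM, was past the threshold with 0.81, at 0.899 to 3.59 FPKM, and TPM2 with -0.70, at 7.49 to 20.9 FPKM.

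Among 11 other intermediate filament genes, 10 passed the minimum. With METTL3 WT, 8 of these were at least 1.5-fold higher in polysomes than in sub-polysomes, where 28.1% of all genes were. KRT19 and KRT18 had log2 translation efficiencies of 1.29 and 1.19 there, near the 1.19 of VIM, and LMNA had 1.53. In METTL3 K177Q cells 9 of the 10 were higher, where 30.2% of all genes were. SYNM, with NES, was past the threshold between genotypes, with 0.65 at 1.03 to 1.70 FPKM. Both genes stand in the range of means with the 19.3% given for ZEB1. In TGF-beta signalling, which induces the mesenchymal state in many epithelia, 17 of 18 genes passed the minimum and 16 had a translation efficiency ratio above 0, where 48.9% of all genes compared did. None passed 1.5-fold, and the median was 0.23. TGFB1 and TGFBR2 had the highest means, with 0.02 and 0.15.

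Of the 19 epithelial genes, 12 passed the minimum, and their median log2 translation efficiency ratio was -0.12. ESRP2 was higher, as given above, and ST14, a membrane protease at 0.748 to 1.67 FPKM, was lower with -0.70. The mean of ST14 lies in the range with the 19.3% given for ZEB1. KRT19 and KRT18, the most abundant, were at -0.20 and -0.18, and with KRT8 they stand in the intermediate filament list too.

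**Figure D5:**
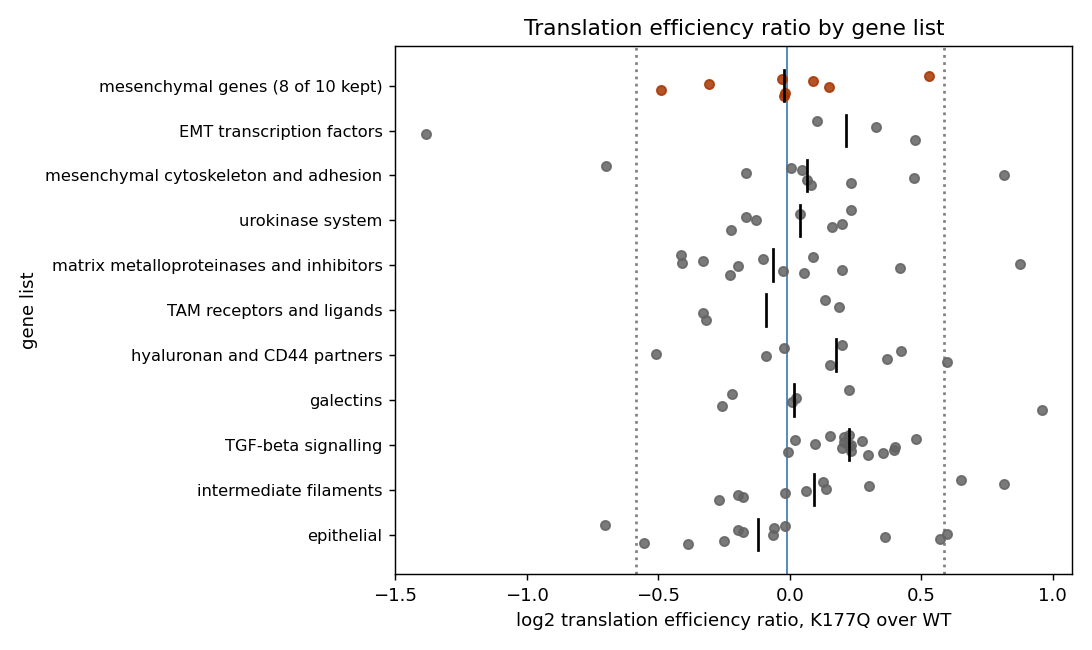
Log2 translation efficiency ratio of METTL3 K177Q to METTL3 WT for each gene averaging 1 FPKM or more (points), by list with the members left out of the other lists; black bars are list medians, the blue line is the median of all genes compared and dotted lines mark 1.5-fold. The mesenchymal genes lie between -0.49 and 0.53, and in TGF-beta signalling 16 of 17 genes lie above 0.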

How the data were processed

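Poly(A)-selected RNA of the sub-polysome and polysome fractions was sequenced from strand-directional libraries. The authors deposited 1 table of FPKM per gene. Per the labels, the submitters' processing notes name STAR 2.7, StringTie 2.1.5 and hg38, without their roles, and the annotation, the strand setting and any scaling between libraries are not given in the sources used here. Columns were matched to the 4 libraries by sample title, and another 4 numeric columns, named as replicate 1 and tied to no listed sample, were left aside. In each library used, 83 to 107 genes had a value above 0 but under 1e-06, so a listed 0 may be an estimate and is not read as absence.

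Log2 ratios were computed with 0.1 added to each FPKM, for genes averaging 1 FPKM or more across the libraries, and a gene was counted as changed at 1.5-fold. With 1 library per group no test was made. The calculation was run on simulated data with large known changes and little noise. That run checks the arithmetic only, and says nothing of differences near 1.5-fold, of low genes or of the spread between replicates. Positions and lengths are those of the canonical transcripts in GENCODE 44 on GRCh38, found by symbol, and the authors' annotation may differ. The members and lists were chosen with earlier results of these data known. Named from the lists were the pair of genes with the highest means, genes past 1.5-fold in translation efficiency and defining epithelial markers. PLAU, FN1, CDH2, CLDN4, ESR1 and PGR were also named, after their values were seen. Alternatives were other pseudocounts, minimum means, scalings and a 2-fold threshold. Calculations ran in Python 3.11.15 (pandas 2.3.3, numpy 2.4.6, scipy 1.17.1) and plots in matplotlib 3.10.9.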

Additional observations from a re-analysis of the deposited data

Results flagged for a closer look

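LGALS1 and ZEB1 were singled out because METTL3 K177Q differed from METTL3 WT in opposite directions in the 2 fractions. LGALS1 was higher in the sub-polysome fraction (log2 difference 0.34) and lower in the polysome fraction (-0.15), a gap of -0.49. ZEB1 was lower in the sub-polysome fraction (-0.42) and higher in the polysome fraction (0.11), a gap of 0.53. Opposite signs were common among all genes compared, so this pattern alone does not set the 2 genes apart. METTL3 K177Q gave the higher value for 49.4% of genes in sub-polysomes and for 46.2% in polysomes, but for 25.5% in both. Neither the LGALS1 nor the ZEB1 gap was tested, since each rests on 1 library per genotype and fraction.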

How the results depend on the processing

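No paired analysis was possible because each genotype and fraction had 1 library used here, and for that reason leaving out a replicate could not be done. The depth is unknown. Rescaling moves all genes together, and counts of members can change with it.

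Between genotypes, the members' median log2 translation efficiency ratio turned from -0.02 to 0.28 with TPM. With equal totals without ribosomal protein genes it was 0.22. The median of all genes was 0.29 and 0.23 on these scales, and -0.01 as deposited. Under each rescaling 1 member was higher (ZEB1), where 18.6% and 14% of all genes were. Without a minimum mean, 1 member was lower (ZEB2), where 12.2% of all genes were. In the sub-polysome fraction, the members' median difference of 0.25 became 0.045 with TPM and 0.051 with those equal totals. The median of all genes was then -0.21 and -0.20. Under each, 0 members were higher and 1 lower, where 9.85% and 9.34% of all genes were lower. At 2-fold, 0 members were higher in either fraction, where 0.954% of all genes were in the sub-polysome and 0.486% in the polysome fraction. In METTL3 K177Q cells, the members' median translation efficiency of 0.30 became 0.73 with TPM, 0.51 with the equal totals and 0.14 with median-of-ratios size factors. The median of all genes was 0.38 with the equal totals and 0.0018 with size factors. In those cells 1 member was lower with size factors and 1 without a minimum mean, where 26.3% and 22.3% of all genes were. With TPM 6 members were higher there, on a scale where 50.2% of all genes were higher and their median was 0.59. In METTL3 WT cells, the members' median of 0.52 became 0.65 with TPM, 0.38 with size factors and 0.29 without a minimum. The median of all genes was then 0.28, 0.002 and 0. With a minimum mean of 10 FPKM the members' median was 0.79 over the 6 members kept, as ZEB1 and SNAI2 dropped out. The median of all genes was 0.27 on that setting. None of those 6 members was lower in METTL3 WT cells, where 16.6% of all genes were. At 2-fold, 2 members were higher in METTL3 WT cells, where 12.5% of all genes were. Of 270 values of single members recomputed, 75 moved by at least 0.1 (log2) and 14 changed sign, each of them under another scaling and none from past 1.5-fold.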
